A study of Mus musculus with 2 samples.

Results

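The genes described here are the cytosolic ribosomal protein genes, which code for the proteins of the small (Rps) and the large (Rpl) ribosomal subunit outside mitochondria. They were taken by symbol alone: Rpl or Rps followed by a number with at most a short letter or digit suffix, the stalk genes Rplp0, Rplp1 and Rplp2, and Rpsa, without the Rps6k kinases and without symbols that contain "-ps", which name ribosomal protein pseudogenes. This gave 89 of the 39098 gene symbols in the files, 36 of the small and 53 of the large subunit, and all 89 had counts in both libraries. In the mouse annotation GENCODE M21 they lay on 19 chromosomes, with 15 members on chromosome 7, and 83 were annotated as protein coding. The other 6 were annotated as pseudogenes although their symbols carry no such mark: Rps4l, Rpl32l, Rpl6l, Rps12l1, Rps3a2 and Rps3a3.

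The cells came from the trigeminal ganglion (TG), which holds the cell bodies of the sensory neurons of the face, of male C57BL/6 mice of 5 to 8 weeks. In the CFA group, 20 μL of complete Freund's adjuvant mixed 1:1 with saline, an emulsion that causes lasting inflammation, had been injected on the right side where the whiskers grow, and the right TG was taken 7 days later. The control group is labelled untreated, and the methods give it saline in place of CFA. Each condition was 1 library of the BD Rhapsody whole transcriptome assay, which counts captured polyA RNA molecules by molecular identifiers (UMIs), and how many mice of a group were pooled in its library is not given in the sources used here.

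With 1 library per condition there was no replicate, so no test was possible and no p-value is given. Condition, library and animals cannot be told apart, and every interval below covers counting error only, at the 95% level. Where 2 values stand in a row, the control comes before the CFA library, and "with CFA" means in the CFA library. Cells were filtered by a minimum of 150 genes and a ceiling of 25% on mitochondrial counts, and those past both were retained: 6695 of 7298 in the control library with 48233077 UMIs, and 3661 of 4080 in the CFA library with 21658155 UMIs. The libraries shared 27 cell barcodes, of which 22 were kept in both. Neuronal markers were also counted outside neurons, over ranges that overlapped between the libraries: the summed level of 10 such markers in the non-neuronal types was 3.92% to 7.36% of its level in neurons for the control library and 1.57% to 7.81% for CFA. Interferon response genes also stood apart: their summed level was 5219 CPM (UMIs relative to all UMIs of a class, on a common scale) in control Schwann cells and 1299 CPM in CFA Schwann cells. Whether either bears on the ribosomal protein genes was not tested.

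A ribosome pairs a small subunit, which decodes the messenger RNA, with a large subunit, which joins the amino acids. Ribosomal proteins are needed in about equal number, so their genes are transcribed in all nucleated cells and are among the most abundant messenger RNAs, especially in growing cells. Many of their messenger RNAs begin at a C followed by a run of pyrimidines, the TOP motif, through which the growth kinase mTOR and the protein Larp1 set their translation. Their genes have also left many processed pseudogenes in the mouse genome, reverse-transcribed copies with the sequence of the spliced message.

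The start windows below show these letters for members that stood out in level or between libraries. A run was counted where at least 5 letters C or T in a row, opening with C, began within 5 bases of the annotated RefSeq start (build GRCm38.p6, sense strand). Where none began there, a C in that range inside a longer stretch of C and T was taken as the opening. Letters of the stretch before that C were not counted, as in Rpl35. Each window holds 30 bases around the start, with the counted letters in capitals. Windows of Rpl10 and Rpl22 are shown because they hold no such run. Rpl22 has another start in the table, upstream of the gene as GENCODE gives it, and no run there either.

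Rpl35, chr2:39005117-39005146, minus strand: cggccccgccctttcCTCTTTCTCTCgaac
Rps27, chr3:90213634-90213663, minus strand: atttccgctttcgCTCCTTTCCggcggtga
Rps26, chr10:128626492-128626521, minus strand: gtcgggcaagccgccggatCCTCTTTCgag
Rps2, chr17:24720048-24720077, plus strand: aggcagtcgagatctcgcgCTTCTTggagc
Rpl22l1, chr3:28805493-28805522, plus strand: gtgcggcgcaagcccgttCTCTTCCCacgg
Rpl13a, chr7:45128731-45128760, minus strand: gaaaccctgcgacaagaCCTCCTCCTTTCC
Rpl15, chr14:18270972-18271001, minus strand: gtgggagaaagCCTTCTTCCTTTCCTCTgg
Rpl10, chrX:74270801-74270830, plus strand: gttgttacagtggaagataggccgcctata
Rpl22, chr4:152325711-152325740, plus strand: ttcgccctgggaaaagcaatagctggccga

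Of the 64 members in the promoter table, 30 (46.9%) had such a run at 1 start or more, against 5718 of 27025 symbols in the whole table (21.2%) and 17 of 69 genes of mitochondrial ribosomal proteins (24.6%). Counted from the opening C, the runs were 5 to 20 letters long, with a median of 8. A run is a match of letters at an annotated start and does not show where transcription began in these cells.

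Immune cells gave the largest share of their UMIs to ribosomal protein genes and oligodendrocyte-like cells the smallest, in both libraries. The share was 6.72% (exact Clopper-Pearson interval 6.67 to 6.77) in the 415 control immune cells (ICs) and 6.66% in the 248 ICs of the CFA library. In oligodendrocyte-like cells (OLCs) it was 1.47% (interval 1.43 to 1.5) in 117 control cells and 1.45% in 153 cells of the CFA library. Both types kept these places in all 22 combinations of library and clustering or counting choice that were tried.

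Between these lay, in the control library, endothelial cells (ECs) at 4.42%, fibroblasts (FBs) at 4.23%, Schwann cells (SCs) at 3.04%, satellite glial cells (SGCs) at 2.78% and neurons at 2.54%. With CFA the values were 4.61% in ECs, 4.95% in FBs, 3.04% in SCs, 2.73% in SGCs and 2.60% in neurons. FBs and ECs thus stood in the opposite order in the 2 libraries, and the other types in the same one. Within a library no interval of a type met that of its neighbour in the order.

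**Figure D1:**
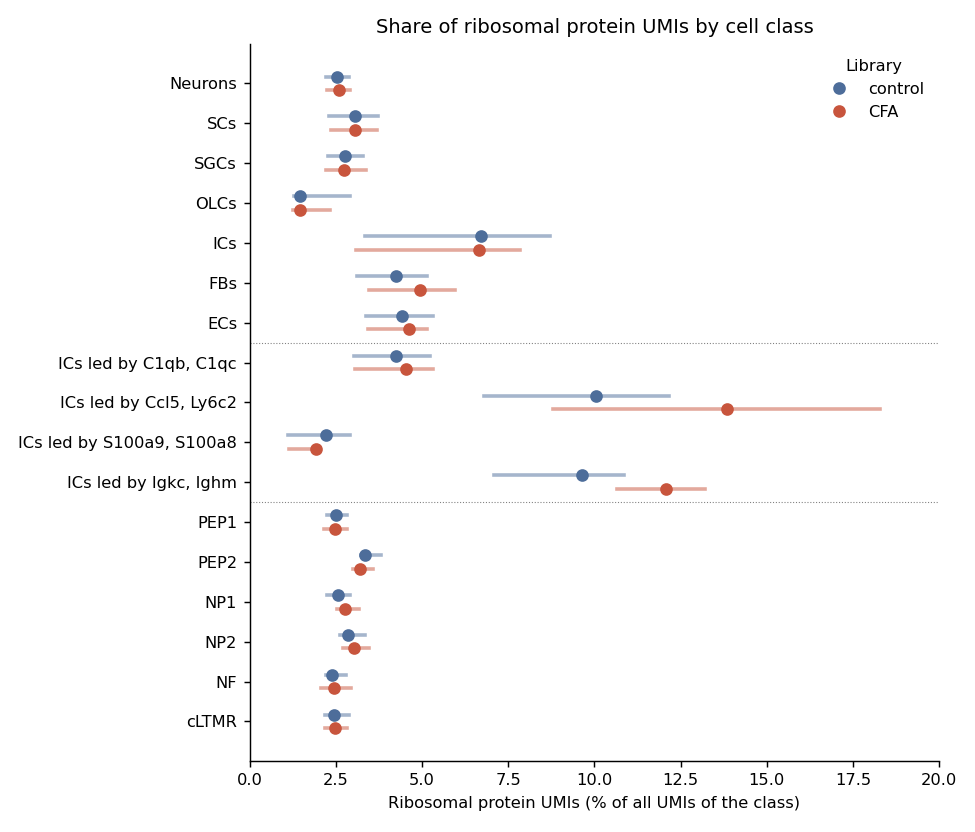
Share of UMIs from the 89 ribosomal protein genes (x axis, percent) for each cell type, neuronal subtype and immune cluster (y axis), with blue points for the summed UMIs of the control library, red points for those of the CFA library, and bars for the quartiles over cells. The immune clusters led by Ccl5 and by Igkc lie to the right of all other classes, and OLCs to the left of all other types.

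The neurons were far deeper than the other cells, with a median of 43660 UMIs in the control and 35110 with CFA, against 1051 and 860.5 in SCs. Per neuron the middle 50% of the shares ran from 2.22% to 2.89% in the control and from 2.24% to 2.92% in the CFA library. Among the immune cells the spread was much wider, with quartiles of 3.34% and 8.70% in the control library.

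The immune cells were made of 4 clusters whose shares differed severalfold. Cells led by Ccl5, Ly6c2, Trbc2 and Nkg7, genes known from T and natural killer cells, gave 10.04% (127 cells) in the control and 13.8% (50 cells) in the CFA library. The cluster led by Igkc, Ighm and Cd79a, genes of B cells, gave 9.63% (56 cells) and 12.1% (16 cells). Macrophage genes led another cluster (C1qb, C1qc, Csf1r), with 4.23% (175 cells) and 4.53% (157 cells). The cluster led by the neutrophil genes S100a9, S100a8 and Ngp was below all of these, with 2.20% (57 cells) and 1.92% (25 cells).

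The pooled share of immune cells was therefore close in the 2 libraries although 3 of the 4 clusters were higher in the CFA library. With the 4 clusters given the same weights in both libraries, a choice made after the clusters were seen, the share of ICs was 6.35% in the control and 7.91% with CFA (log2 ratio 0.32, against -0.012 for the pooled cells). Neuronal markers in ICs were at 5.48% of their level in neurons in the control library and at 2.05% in the CFA library, and their part in this difference was not tested.

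Of the 7 types, fibroblasts were the one whose pooled share differed most between the libraries, with 4.23% (interval 4.20 to 4.27, 591 control cells) and 4.95% (4.89 to 5.00, 403 CFA cells), which is a log2 ratio of 0.23 (interval 0.20 to 0.25). A small cluster led by Ecrg4, Slc4a10 and Mgp held 6 control cells and 37 cells of the CFA library, with 4.87% and 5.47%. Without it the shares were 4.22% and 4.84%, a log2 ratio of 0.20. The quartiles over fibroblasts overlapped widely, 3.12% to 5.14% in the control and 3.47% to 5.95% in the CFA library. Beside this, neuronal markers in FBs were at 4.47% of their level in neurons in the control library and at 1.74% in the CFA library.

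The remaining types differed less, with log2 ratios of 0.061 (interval 0.030 to 0.092) in ECs, 0.036 (0.031 to 0.041) in neurons, -0.023 (-0.045 to -0.00093) in SGCs and -0.00069 (-0.016 to 0.015) in SCs. Myelinating SCs gave 3.01% and 3.05%, and non-myelinating SCs 3.10% and 3.03%. The latter included a cluster led by the interferon genes Ifit3 and Gbp2, of which 325 cells were from the control and 9 from the CFA library. Its control share was 2.91%, and without it the non-myelinating SCs were at 3.25% and 3.06%.

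The neuronal subtypes were closer to each other than the cell types were. PEP2, peptidergic neurons marked here by Sst, Nppb and Nts, had the highest share, 3.36% (interval 3.31 to 3.40) in 12 control cells and 3.19% (3.14 to 3.24) in 11 cells of the CFA library. NP2, the non-peptidergic neurons marked by Mrgpra3, followed with 2.84% (53 cells) and 3.02% (16 cells). NP1, marked by Mrgprd, gave 2.56% (177 cells) and 2.76% (65 cells). PEP1, the large peptidergic group, gave 2.50% (336 cells) and 2.49% (200 cells). The C-fiber low-threshold mechanoreceptors (cLTMR) gave 2.44% (73 cells) and 2.48% (48 cells), and the Nefh-positive neurons (NF) 2.40% (90 cells) and 2.44% (62 cells).

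The log2 ratio of CFA over control was 0.11 (interval 0.10 to 0.12) in NP1, 0.089 (0.070 to 0.11) in NP2 and -0.074 (-0.10 to -0.044) in PEP2, and between -0.0084 and 0.022 in the others. PEP2 had the highest share in 21 of the 22 combinations of library and processing choice. In the remaining one, a draw of 3000 cells per library, NP2 and NP1 of the CFA library were higher. With 12 and 11 cells, the value of PEP2 rests on few neurons.

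The small subunit gave 45.1% of the ribosomal protein UMIs in control neurons and 45.2% in CFA neurons, 48.3% and 48.8% in FBs and 49.4% and 50.1% in ICs. The balance of the subunits thus differed more between these types than between the libraries.

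By single gene, the levels below are in CPM. They were not divided by transcript length, because the assay tags a molecule at its polyA end and counts it once. In neurons, 79 members passed a minimum of 200 counts in both libraries, 78 of them protein coding. Over these 78 the median level was 283 CPM in the control and 287 CPM with CFA, with quartiles of 202 and 432 CPM in the control.

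Rplp1, a protein of the stalk that recruits elongation factors, was the most abundant member in neurons, at 849 CPM (exact Poisson interval 840 to 858) in the control and 877 CPM with CFA. Among the next in the control library were small subunit genes. Rps26 was at 703 CPM and 617 CPM in the CFA library, Rps20 at 655 and 684 CPM, and Rps21 at 641 and 679 CPM. The intervals of Rps20 and Rps21 overlapped in the control library, and their order there was not tested.

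The lowest of the members past the minimum were mostly copies or paralogs. Rpl7l1, a paralog of Rpl7, was at 38.6 CPM in the control and 36.8 CPM in the CFA library. Rpl13a, known for a second role in interferon-dependent silencing of translation, was at 54.2 and 51.4 CPM. Rps27l, a paralog of Rps27 and a target of p53, was at 59.2 and 50.8 CPM. Rpl36 followed with 69.8 and 61.7 CPM, and Rps4l with 73.8 and 82.9 CPM.

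The 10 members below the minimum included 2 genes of proteins that every ribosome carries. Rpl24 had 20 counts in control neurons and 11 in CFA neurons, and Rps10 had 74 and 43. Genes alike in sequence were not low. Those that share at least 20% of the 50-base words of Rpl24 had 2736 and 1122 counts, and those of Rps10 had 2420 and 905. By this rule RPS10-NUDT3 is among the genes like Rps10, so not all of them carry pseudogene symbols. Counts under Rpl24 and Rps10 may be a part of their messages. The others below the minimum were the paralogs Rpl39l (3 and 0 counts), Rpl10l (3 and 1) and Rpl3l (5 and 2), known from testis or muscle, and the pseudogenes Rps12l1 (14 and 5), Rpl6l (61 and 59), Rps3a2 (79 and 22), Rps3a3 (139 and 61) and Rpl32l (196 and 111). At the depth of the CFA neurons, 3 counts stand for 0.18 CPM, so 0 counts of Rpl39l do not show its absence.

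Across the cell types most members kept the order of the summed share. Of the 78 protein-coding members past the minimum, 74 were highest in ICs in the control library and 66 with CFA, and 76 and 77 were lowest in OLCs. The highest type was a median of 4.62-fold above the lowest over the 79 members.

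**Figure D2:**
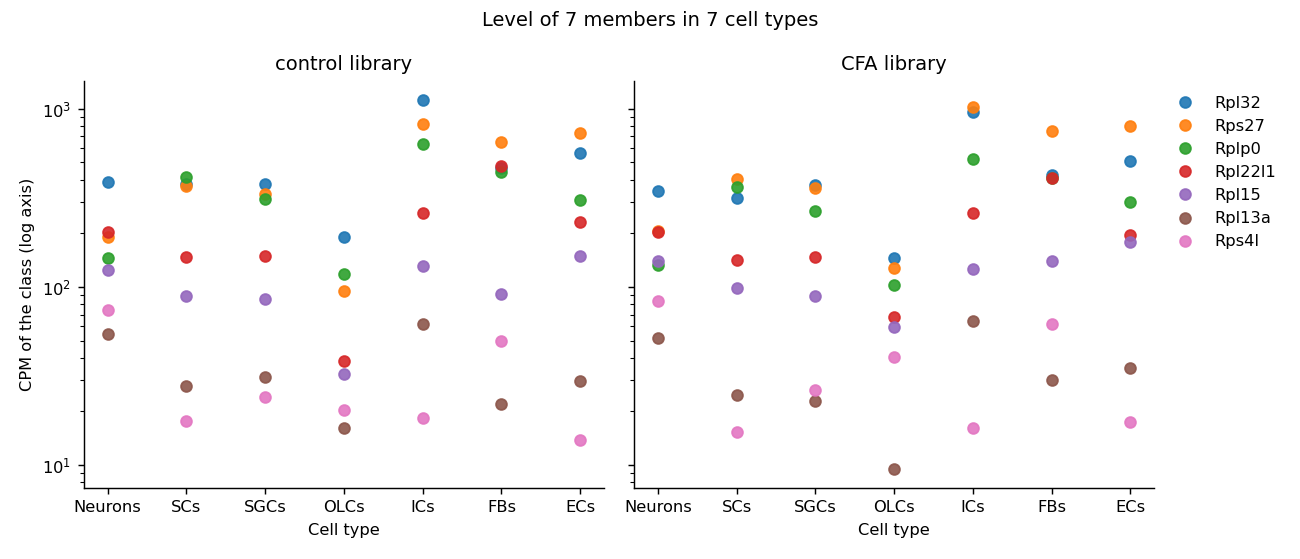
Level of 7 ribosomal protein genes (y axis, CPM, log scale; 1 colour per gene) in the 7 cell types (x axis) of the control library (left panel) and the CFA library (right panel). Most of them are high in ICs and low in OLCs, while Rps4l is highest in neurons in both libraries.

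Rpl22l1 and Rpl10a spread most over the types of the control library. Rpl22l1, a paralog of Rpl22 that can replace it in the large subunit, was at 479 CPM in control FBs, 259 in ICs, 231 in ECs and 204 in neurons. It was lower in SGCs (149 CPM), SCs (148) and OLCs (38.5, with 19 counts), a range of 12.4-fold. In the CFA library it was again highest in FBs, at 407 CPM, and lowest in OLCs, at 67.7 CPM, a range of 6.01-fold, which was narrower there than that of Rpl12 or Rps27. Rpl22 itself was highest in ICs (588 CPM in the control and 505 with CFA) and at 278 and 337 CPM in FBs. In FBs the paralog thus stood above Rpl22, in ICs below it, in both libraries. All 50-base words in the last 300 bases of Rpl22 were found in no other gene, against 36.7% of those of Rpl22l1. For each member the words come from its longest transcript in GENCODE M21, with protein-coding transcripts preferred. The transcript end used in these cells may be another.

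Rpl10a, which forms a mobile stalk at the side of the large subunit, ran from 201 CPM in control ICs to 18.2 CPM in OLCs (11.01-fold, with 9 counts in OLCs), Rps20 from 1717 to 199 CPM (8.64-fold), Rps27 from 821 to 95.3 CPM (8.62-fold) and Rpl12 from 566 to 79.1 CPM (7.16-fold). In the CFA library the ranges between the same types were 5.93-fold, 7.23-fold, 8.07-fold and 8.29-fold. In the control library OLCs held the fewest UMIs of the 7 types.

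Rps4l was the member whose pattern ran against the rest. It was at 73.8 CPM in control neurons (interval 71.1 to 76.6), 49.9 in FBs, 24.1 in SGCs, 20.3 in OLCs, 18.3 in ICs, 17.6 in SCs and 13.8 in ECs. In the CFA library neurons were at 82.9 CPM and FBs at 62.0. Its parent gene Rps4x, X-linked and part of the small subunit, had the usual order, with 1103 CPM in ICs, 375 CPM in neurons and 180 CPM in OLCs of the control library. The genes can be told apart in sequence: of 789 coding bases compared, 161 differed (79.6% identity), and the stretches of 60 bases with the most differences are shown with these in capitals.

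Rps4x, chrX:102184941-102189394, minus strand, bases 569 to 628 of the transcript: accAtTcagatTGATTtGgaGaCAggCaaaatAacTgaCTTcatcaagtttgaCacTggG
Rps4l, chr6:148354656-148355598, plus strand, bases 475 to 534 of the transcript: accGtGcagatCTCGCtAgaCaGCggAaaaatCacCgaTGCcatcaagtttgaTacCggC

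Rps4l lies on chromosome 6 in GRCm38 and is annotated as a transcribed processed pseudogene. In its last 300 bases 82.5% of the 50-base words were found in no other gene.

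Rpl13a and Rplp0 departed from the order in opposite directions in neurons. Rpl13a was at 54.2 CPM in control neurons, close to 62.3 CPM in ICs, and at 21.9 to 31.3 CPM in FBs, SCs, ECs and SGCs. Rplp0, the anchor of the stalk, was at 145 CPM in control neurons against 412 in SCs, 440 in FBs and 633 in ICs, and at 133, 362, 408 and 521 CPM in the CFA library. For both genes all 50-base words in the last 300 bases were found in no other gene. Over the whole transcript this held for 42.6% of the words of Rpl13a, which has the copy Gm45713, and 58.2% of those of Rplp0. Reads from before those 300 bases, or from another transcript end, may be shared with other genes. Counts under either symbol may then be a part of its message.

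Over 26 points, the 7 types and 6 subtypes in both libraries, the log2 level of a member correlated with that of the other members summed at a median Pearson r of 0.93. This was done for the 78 protein-coding members past the minimum, so the pseudogene Rps4l is not among them. Of these 78, Rpl13a (r = 0.35), Rps27l (0.42), Rpl7l1 (0.54), Rpl15 (0.56) and Rpl22l1 (0.70) were the least like the rest. The points share their libraries, and the subtypes are parts of the neurons, so these values are descriptions.

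Within neurons, members varied by a median of 1.48-fold between the highest and the lowest control subtype. Rps4l again varied most, with 143 CPM in PEP2 (78 counts), 102 in PEP1, 82.9 in NF, 69.6 in NP2, 53.2 in cLTMR and 43.7 in NP1. In the CFA library PEP1 was highest at 109 CPM, PEP2 was at 65.7 (36 counts) and NP2 lowest at 31.0 (28 counts). PEP1 was above NP1 and cLTMR in both libraries, and the place of PEP2 and NP2 differed between them.

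Rpl36a, a large subunit gene on chromosome X, was at 459 CPM in control PEP2, 422 in NP2, 288 in NP1, 223 in NF, 206 in cLTMR and 192 in PEP1. In the CFA library the values were 372, 440, 320, 252, 198 and 184 CPM. PEP2, NP2 and NP1 were thus above the 3 other subtypes in both libraries. Its last 300 bases held no 50-base word that is found in no other gene, so counts under this symbol may be a part of the message.

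The paralog pairs differed among the subtypes as well. Rpl22l1 was at 268 CPM in PEP1 against 148 for Rpl22, and at 129 CPM in NP2 against 247 for Rpl22, in the control library. In the CFA library the values were 249 and 135 CPM in PEP1, and 139 and 179 CPM in NP2. The paralog was above Rpl22 in PEP1 and below it in NP2 in both libraries. Rps27l ran from 75.7 CPM in NP2 to 36.7 CPM in PEP2, and from 77.4 to 27.4 CPM in the CFA library. Its values in PEP2 rest on 20 and 15 counts.

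Between the libraries the members in neurons differed little. The median log2 ratio of CFA over control was 0.025 over the 79 members and 0.0031 over all 8704 genes past the same minimum. A log2 ratio of at least 0.2 in size was taken as past the fold. It was reached by 7 members higher in the CFA library, where 18.0% of all genes were, and by 5 members lower in it, where 15.2% of all genes were. As shares of the 79 members these are 8.86% and 6.33%. The background was not matched to the members in counts, here or in the classes below. A gene near the minimum passes the fold by counting error more easily than a deeply counted member, so a lower share need not mean steadier genes. The counting interval of the ratio lay above 0 for 34 members, below 0 for 21 and held 0 for 24. These counts have no share over all genes beside them. With deep counts even a small ratio can put the interval off 0, so they do not set the members apart.

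**Figure D3:**
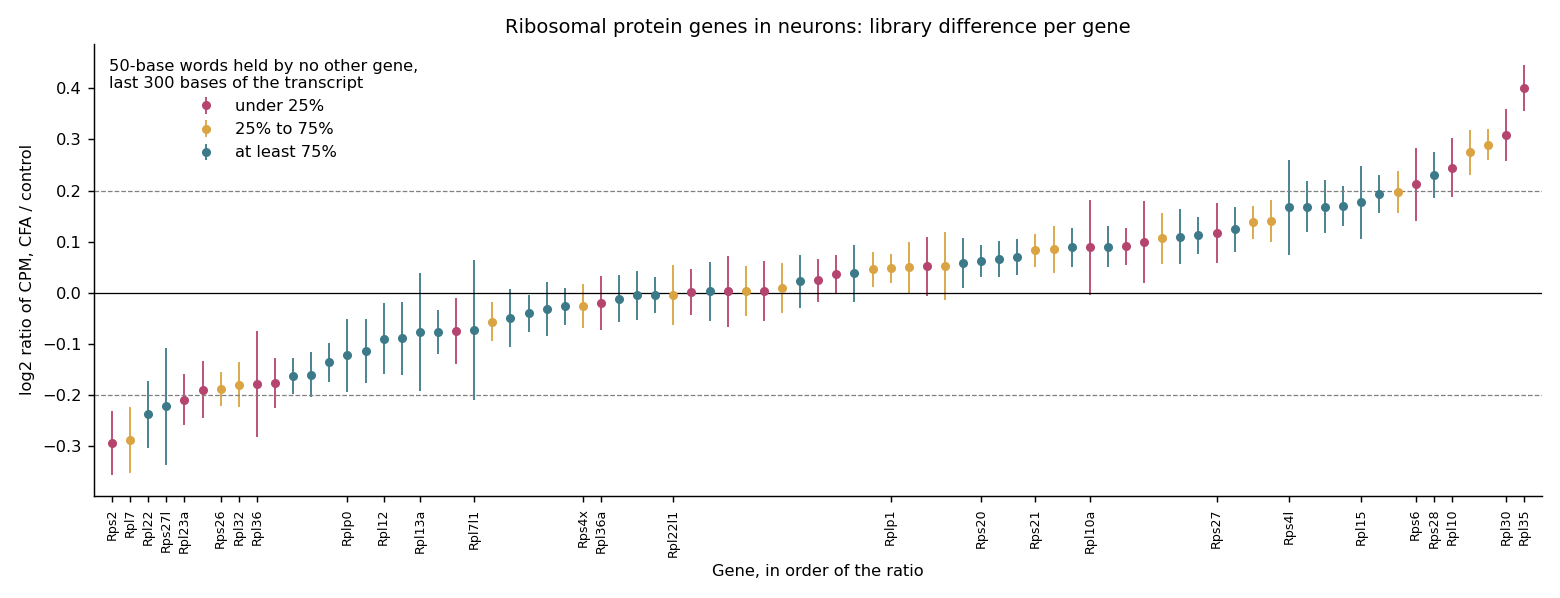
Log2 ratio of CFA over control in neurons (y axis) for the 79 ribosomal protein genes past the minimum (x axis, in order of the ratio, with the names of some), with bars for the 95% counting interval, dashed lines at the fold of 0.2 and colours for the share of 50-base words in the last 300 bases that no other gene holds. The members run from -0.29 (Rps2) to 0.40 (Rpl35), and most lie within the fold.

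Rpl35, of the large subunit near the exit of the nascent chain, was highest in ratio. It was at 276 CPM (interval 271 to 281) in control neurons and 365 CPM (355 to 374) with CFA (log2 ratio 0.40). In each subtype it was higher in the CFA library, from 259 and 313 CPM in cLTMR to 336 and 508 CPM in PEP2. Outside neurons it was at 443 and 640 CPM in FBs, 481 and 632 in ECs, 301 and 356 in SCs, and 682 and 803 in ICs. In SGCs (367 and 413 CPM) and OLCs (152 and 162 CPM) the interval of the ratio held 0. The gene spans chr2:39001580-39005624, and only 3.98% of the words in its last 300 bases were found in no other gene. A look-alike annotated as protein coding, Gm2000, had 2335 and 762 counts in neurons, and with these and the pseudogene counts added the ratio was 0.28.

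Rpl30, Rpl10, Rps28 and Rps6 were also past the fold on this side. Rpl30 was at 231 CPM in control neurons and 286 CPM with CFA (log2 ratio 0.31). Rps28 was at 307 and 361 CPM (0.23), and Rps6, the small subunit protein phosphorylated by S6 kinases, at 121 and 140 CPM (0.21). Few counts fell on the 3 copies of Rps28, which had 79 counts in control neurons and 33 in CFA neurons, against 11871 and 6063 of its own, and with these added its ratio was again 0.23.

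On the lower side, Rps2, at the entry of the messenger channel, was at 203 CPM (interval 198 to 207) in control neurons and 165 CPM (159 to 172) with CFA, a log2 ratio of -0.29. Rpl7 was at 191 and 157 CPM (-0.29), Rpl22 at 184 and 156 CPM (-0.24), Rps27l at 59.2 and 50.8 CPM (-0.22) and Rpl23a at 303 and 262 CPM (-0.21). Rpl7 was lower in the CFA library in all 6 subtypes and all 7 types. Of the 7 types, the interval lay below 0 in neurons, SCs and SGCs. For Rps2 the values were 319 and 222 CPM in SCs, 489 and 321 CPM in ICs, and 316 and 319 CPM in FBs, where the libraries did not differ beyond counting error. Rpl22 and Rps27l had no copy by the 20% rule.

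Rpl32, of the large subunit (chr6:115805505-115808747), was just inside the fold in neurons, with 390 CPM (383 to 396) against 344 CPM with CFA (335 to 353), a log2 ratio of -0.18 (interval -0.22 to -0.14). It was at 402 and 345 CPM in PEP1, 555 and 378 in PEP2, 390 and 372 in NP1, 416 and 374 in NP2, 367 and 302 in NF and 319 and 293 in cLTMR. All 6 subtypes were lower in the CFA library, and the interval of the ratio held 0 in NP1, NP2 and cLTMR. The non-neuronal types were lower as well, with 379 and 316 CPM in SCs, 376 and 371 in SGCs, 191 and 145 in OLCs, 1126 and 959 in ICs, 464 and 426 in FBs and 564 and 506 in ECs, although the interval held 0 in SGCs, OLCs, FBs and ECs. Its pseudogenes added 29 counts in control neurons to 15052 of its own, and left the ratio at -0.18.

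Rpl10, of the large subunit and X-linked, is the member whose ratio moved most with its copies, and its direction turned. Under its own symbol it was at 187 CPM (182 to 191) in control neurons and 221 CPM (214 to 228) with CFA, a log2 ratio of 0.24. It was higher in the CFA library in all 6 subtypes, from 134 and 171 CPM in NF to 250 and 305 CPM in NP2. In PEP2 the interval of the ratio held 0. Outside neurons it was at 403 and 530 CPM in ICs, with an interval above 0. In SGCs it was lower in the CFA library (169 and 139 CPM), with an interval that held 0. SCs, OLCs, FBs and ECs were higher, with intervals that also held 0. Rpl10-ps3, annotated as protein coding on chromosome 9 despite its name, was at 189 CPM in control neurons and 120 CPM with CFA, a log2 ratio of -0.66 (interval -0.73 to -0.59). The coding sequences of the pair are the same over all 645 bases, as the first 60 show.

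Rpl10, chrX:74270812-74273135, plus strand, bases 87 to 146 of the transcript: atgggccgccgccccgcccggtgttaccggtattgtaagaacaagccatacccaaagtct
Rpl10-ps3, chr9:50344201-50344968, minus strand, bases 28 to 87 of the transcript: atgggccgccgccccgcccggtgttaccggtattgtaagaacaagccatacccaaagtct

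In the last 300 bases of Rpl10 no 50-base word was found in that gene alone. Summed with its pseudogene symbols, Rpl10 had 14637 counts in control neurons and 5782 in CFA neurons. The log2 ratio was then -0.14 (interval -0.18 to -0.10), and with all copies -0.12. How the counting shared reads between such genes is not given in the sources used here, so the ratio of Rpl10 alone may not be that of its message.

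With all copies added the sign turned for 11 of the 79 members, among them Rpl10a (0.089 to -0.028), whose own interval held 0. Other members moved to a lesser degree than Rpl10. For Rps27 the ratio of 0.12 became -0.00053 (interval -0.052 to 0.051) when 2759 and 926 counts of its copies were added. For Rpl36 it went from -0.18 to -0.037, and for Rpl15 from 0.18 to 0.082. The ratio of Rps2 went from -0.29 to -0.32. Of the 89 members, 63 had at least 1 such copy.

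**Figure D4:**
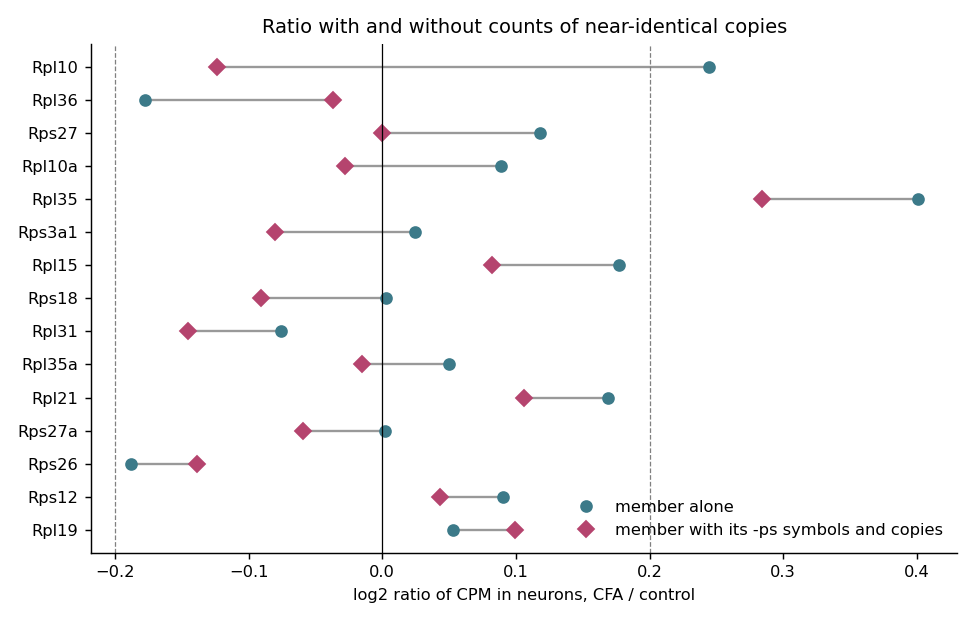
Log2 ratio of CFA over control in neurons (x axis) for the 15 ribosomal protein genes that moved most with their copies, 1 gene per row, as circles for the gene alone and diamonds with the counts of its pseudogene symbols and copies added. Dashed lines mark the fold of 0.2, Rpl10 crosses from 0.24 to -0.12, and Rpl35 is at 0.40 and 0.28.

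The 299 pseudogene symbols together gave 1617 CPM in control neurons and 1426 CPM with CFA, a log2 ratio of -0.18 (interval -0.20 to -0.16), against 0.036 for the members. Of the 31 that passed 200 counts in both libraries, 13 were past the fold as lower and 6 as higher in the CFA library. Grouped by how much of their last 300 bases is unique, 6 of 21 protein-coding members under 25% were past the fold, 3 of 20 between 25% and 75%, and 3 of 37 at 75% or more, beside 18.0% of all genes past it as higher and 15.2% as lower. The median size of the ratio was 0.10, 0.084 and 0.089 in these groups. The share of reads with several alignments was unlike in the libraries by the mapping statistics of the study, and whether these touch the members was not tested.

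Members with and without a pyrimidine run at the start differed little between the libraries. The 28 members past the minimum with a run had a median log2 ratio of 0.048, with 2 past the fold on each side, among them Rpl35 and Rps2. The 30 without a run had a median of 0.0029, with 2 higher and 1 lower, and the 21 outside the promoter table a median of 0.036, with 3 higher and 2 lower. Over all genes 18.0% were higher and 15.2% lower.

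Among the subtypes, NP1 and NP2 had few members past the fold as lower in the CFA library, while their counts of higher members were near the background. In NP1, 18 of 79 members past 50 counts (22.8%) were past the fold as higher, where 18.6% of all genes were, and 1 (Rpl7, 1.27%) as lower, where 18.9% of all genes were. The median was 0.098 over the members and -0.0055 over all 7969 genes. Among the highest were Rpl35 (278 and 379 CPM, log2 ratio 0.45), Rps28 (254 and 342 CPM, 0.43), Rps4l (43.7 and 57.9 CPM, 0.41) and Rpl10 (0.36).

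In NP2, 20 of 76 members (26.3%) were past the fold as higher (22.2% of all genes) and 3 (3.95%) as lower (19.1%). In PEP2, 8 of 73 members (10.96%) were higher (24.5% of all genes) and 21 (28.8%) lower (24.6%), the latter near the background. In PEP1 it was 4 higher (22.4%) and 10 lower (19.0%) of 79 members, in NF 9 higher (22.8%) and 11 lower (20.2%) of 79, and in cLTMR 8 higher (22.6%) and 11 lower (20.0%) of 79. The subtypes of a library share its preparation, so these counts are not independent of each other.

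In FBs, 41 of 75 members past 50 counts were past the fold as higher in the CFA library, where 39.3% of all genes were, and 2 as lower, where 18.6% were. The median was 0.22 over the members and 0.11 over all 2066 genes. Rplp1 was at 1557 CPM (interval 1486 to 1631) in control FBs and 2274 CPM (2158 to 2395) in CFA FBs (log2 ratio 0.55) and Rps24 at 804 and 1138 CPM (0.50). Rpl15, the highest in ratio at 0.62, rested on 104 and 88 counts. The 2 lower ones were Rpl29 (226 and 188 CPM, -0.27) and Rpl22l1 (479 and 407 CPM, -0.24).

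In the other types the members had fewer genes past the fold as higher than the background. These were 9 of 77 in SCs (35.9% of all genes), 7 of 76 in myelinating SCs (37.6%), 9 of 69 in non-myelinating SCs (45.6%), 3 of 76 in SGCs (32.7%), 10 of 62 in OLCs (28.9%), 12 of 75 in ICs (44.3%) and 17 of 73 in ECs (41.2%). Lower in the CFA library were 10 in SCs (22.3%), 9 in myelinating SCs (19.2%), 12 in non-myelinating SCs (20.1%), 15 in SGCs (18.2%), 19 in OLCs (26.2%), 16 in ICs (21.9%) and 9 in ECs (17.4%). The median log2 ratio over all genes in these classes lay between 0.015 (OLCs) and 0.16 (non-myelinating SCs). In each of them but OLCs, and in FBs, the CFA library held fewer UMIs than the control. The minimum of 50 counts in both libraries then keeps a gene near it more readily if it is higher with CFA. How far this raises the background of higher genes was not tested, so the smaller shares of members are not a result about them.

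Other genes of translation were read from lists chosen by their function. In neurons, 18.0% of all genes past the minimum were past the fold as higher in the CFA library and 15.2% as lower. Of 5 ribosome genes whose symbols fall outside the rule, 3 passed the minimum in neurons. Rack1, on the head of the small subunit, was at 249 and 241 CPM and Fau, which encodes a small subunit protein fused to a ubiquitin-like part, at 280 and 263 CPM, both within the fold, and Rps27rt, the look-alike of Rps27, was past it at 71.3 and 55.1 CPM (log2 ratio -0.37). Of 8 elongation factor genes, 1 was past the fold (Eef2, -0.22). Of 30 initiation factor genes, 3 were higher in the CFA library (Eif5b 0.58, Eif3a 0.36, Eif3j1 0.22) and 2 lower (Eif1b -0.24, Eif4g2 -0.22).

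Of 6 other genes known for TOP messages, Hnrnpa1 was higher (0.38) and Tpt1 lower (-0.31). In ribosome assembly 17 of 19 genes passed the minimum, with 4 higher (Dkc1 0.39, Nop56 0.34, Wdr12 0.25, Ncl 0.24) and 3 lower. Among genes of growth control of translation, Rps6kb1 (0.35) and Eif4ebp2 (0.23) were higher and Tsc2 (-0.22) lower, of 10 that passed. The 77 mitochondrial ribosomal protein genes past the minimum had 7 higher and 7 lower and a median of 0.011. Beside these counts, 18.0% of all genes in neurons were higher and 15.2% lower, and the lists are too short to be set apart from that. None of the list medians in neurons was past the fold, apart from that of the interferon genes, which was -0.65 with all 4 genes that passed lower in the CFA library.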

How the data were processed

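The deposited values were unscaled integer UMI counts for each gene in each cell, in cells called by the BD Rhapsody pipeline. The submitters' processing notes name fastp and GRCm38, while the aligner and annotation are not given in the sources used here. Symbols were matched to GENCODE M21 (89 of 89 members).

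Both libraries were clustered together in R 4.3.3 with Seurat 5.3.0 (2000 variable genes without the members, 20 components, 20 neighbours, seed 1, resolution 0.8 overall and 1 within neurons). Doublets were kept. Clusters were named from markers under rules set during the work, after clusters were seen. The subtype markers come from a supplementary list of the study, so subtype names are not independent of it. Sums, exact intervals and sequence counts were made with scanpy 1.11.5, pandas 2.3.3, scipy 1.17.1 and numpy 2.4.6 under Python 3.11.15. The ratio interval is conditional exact binomial, and its script was tested on simulated data.

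Members and lists were chosen with earlier results of these data known. Named members were Rpl32 and Rpl10, the 5 highest and 5 lowest in neuronal ratio and in neuronal level, the 5 that spread most over types and over subtypes, paralog pairs and members at 0. Rplp0, Rpl15, Rpl24, Rps10, Rps28, Rps6, Rpl29, Rps24 and the pseudogene members were named after their values were seen. Some members that the rule picks are not reported here. The alternatives tried were other cell filters, doublet removal, a draw of 3000 cells, other resolutions, weights and minimums, and copies added.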

Additional observations from a re-analysis of the deposited data

Results flagged for a closer look

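The summed share of the ribosomal protein genes was higher in the CFA library in FBs (log2 ratio 0.23) and lower in it in SGCs (-0.023), with counting intervals that lay on opposite sides of 0. Among the neuronal subtypes, the same was seen for NP1 (0.11) and PEP2 (-0.074). Both pairs were set by name, but they match the extremes of the outcome. Of neurons, SCs, SGCs, OLCs, ICs, FBs and ECs, FBs had the highest ratio and SGCs the lowest. Among the named subtypes NP1 had the highest ratio and PEP2 the lowest. The opposite signs within each pair are therefore not a result independent of how the pairs were picked. The interval in SGCs (-0.045 to -0.00093) ended close to 0. With 1 library per condition neither difference between classes was tested, and the cause of neither was tested.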

How the results depend on the processing

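The share in neurons moved by more than its counting interval under several choices. For the control and the CFA library it was 2.56% and 2.61% with a stricter cell filter, 2.53% and 2.59% with no limit on mitochondrial counts, 2.60% and 2.67% without mitochondrial genes, 2.50% and 2.56% with every cell weighted equally and 2.70% and 2.74% with pseudogene counts added. It was also 2.55% in the control library at higher resolution and 2.58% in the CFA library with 3000 cells per library. The summed log2 ratio in neurons, 0.036, was 0.028 with the stricter filter, 0.030 at higher resolution, 0.023 with 3000 cells, 0.041 with the same subtype weights, 0.024 with pseudogene counts added and 0.016 with all copies added. The copies were an addition after the data were seen. The number of members past the fold in neurons was 6 to 9 higher and 4 to 6 lower. Of 400 alternatives for 25 named members, 384 stayed within the counting interval, and the sign turned in 10, of which 7 were of members whose own interval held 0 (Rpl10a, Rpl36a and Rpl22l1). The other 3 were Rpl10 with pseudogene counts (-0.14) and with all copies (-0.12), and Rps27 with all copies (-0.00053). The ratio in FBs ran from 0.17 to 0.26 and that in ICs from -0.071 to 0.32. The cause of these shifts was not tested beyond what each choice adds or removes.

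No paired analysis was possible because each condition is 1 library and the labels share no replicate numbers. Leaving out a replicate has no meaning here for the same reason. The fewest members passed 50 counts in OLCs (62), non-myelinating SCs (69), ECs (73) and PEP2 (73), and counting intervals do not cover the spread between animals.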

Other observations

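Outside the 7 types, mural cells gave 2.82% of their UMIs to ribosomal protein genes in both libraries (68 and 23 cells), and erythrocytes, led by the globin genes, gave 2.36% (53 cells) in the control and 1.64% (97 cells) in the CFA library. A cluster with Schwann cell markers led by the neuronal genes Meg3, Snhg11 and Scn11a stayed unnamed and gave 3.16% (320 cells) and 2.51% (103 cells). A cluster of neurons led by Malat1, mt-Rnr1 and Kcnt1 had the lowest share of all, 0.53% in 18 control cells and 0.55% in 3 cells of the CFA library, with a median of 12678 and 11101 UMIs per cell and 17.2% and 16.8% mitochondrial UMIs.

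Over the 26 points of types and subtypes, the genes outside the set whose log2 level was most like that of the summed members were Gm15500 (r = 0.98), Gm9320 (0.97), Rack1 (0.97), Gm14303 (0.95), Chic2 (0.95), Fau (0.94), Gm11478 (0.94), Akap13 (0.93), Gm5835 (0.92) and Gm15501 (0.92), of 6160 genes with at least 2000 counts.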
